A study of Schizosaccharomyces pombe with 6 samples.

Results

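Fission yeast, Schizosaccharomyces pombe, takes up iron by a reductive route and by a route that uses siderophores, small molecules that bind ferric iron. Levels of 8 genes of these routes were followed by RNA-seq in cells with and without the gene cpn1: the uptake genes fio1 (SPAC1F7.08), fip1 (SPAC1F7.07c), frp1 (SPBC1683.09c), str1 (SPBC4F6.09), str3 (SPAC1F8.03c) and sib1 (SPAC23G3.02c), and the regulators fep1 (SPAC23E2.01) and php4 (SPBC16E9.01c). They were chosen by identifier, with earlier results of these data known, and make up 8 of the 7268 features in the count table. The study asked whether Cpn1, the fission yeast relative of the human RNA-binding protein CAPRIN1, has a part in regulating the transcriptome. For this, polyA-selected RNA from 3 biological replicates of each genotype was sequenced, after growth to log phase in the rich medium YES at 32 °C. Both strains were h+ and shared the alleles ade6-210, leu1-32 and ura4-D18 and the otr1R:ade6+ reporter at the outer repeats of a centromere, and the cpn1∆ strain carried cpn1::HygMX6 in addition. By the labels each genotype was 1 strain, so that any other difference between the strains cannot be told apart from the deletion.

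As background, the reductive route begins at the cell surface with the ferric reductase Frp1, and the ferroxidase Fio1 and the permease Fip1 then carry the reduced iron across the membrane as a complex. Sib1 is the peptide synthetase that builds the siderophore ferrichrome, Str1 imports ferrichrome, and Str3, named as a siderophore transporter, is also known for heme uptake. Fep1 is a GATA-type repressor that turns these uptake genes off when iron is plentiful. Php4 joins the CCAAT-binding complex when iron is scarce and turns off genes that use or store iron, and Fep1 and Php4 repress each other's genes.

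The GATA element through which Fep1 acts was looked for in the 300 bases before the annotated start of each gene, as AGATAA or TGATAA on either strand. These sequences are shown because they hold, or lack, the element in genes whose values the results turn on. They were read from the RefSeq assembly ASM294v3 by gene identifier, whereas the reads were counted on ASM294v2. In them capitals mark the GATA elements, each is written along the strand of its gene, and they lie at I:4234772-4235071 on the plus strand for fio1, II:162393-162692 on the minus strand for frp1 and I:90290-90589 on the minus strand for str3.
fio1: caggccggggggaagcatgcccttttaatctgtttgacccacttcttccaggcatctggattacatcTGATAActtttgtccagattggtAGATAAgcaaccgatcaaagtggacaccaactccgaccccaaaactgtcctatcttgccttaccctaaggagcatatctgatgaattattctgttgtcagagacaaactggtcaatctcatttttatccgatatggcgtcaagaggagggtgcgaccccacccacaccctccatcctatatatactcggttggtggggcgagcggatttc
frp1: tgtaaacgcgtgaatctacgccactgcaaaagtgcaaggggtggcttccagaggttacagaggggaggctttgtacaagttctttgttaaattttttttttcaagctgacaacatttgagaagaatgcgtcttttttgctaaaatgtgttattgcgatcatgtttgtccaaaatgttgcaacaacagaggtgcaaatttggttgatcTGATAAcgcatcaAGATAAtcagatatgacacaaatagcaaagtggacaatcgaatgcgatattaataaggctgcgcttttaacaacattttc
str3: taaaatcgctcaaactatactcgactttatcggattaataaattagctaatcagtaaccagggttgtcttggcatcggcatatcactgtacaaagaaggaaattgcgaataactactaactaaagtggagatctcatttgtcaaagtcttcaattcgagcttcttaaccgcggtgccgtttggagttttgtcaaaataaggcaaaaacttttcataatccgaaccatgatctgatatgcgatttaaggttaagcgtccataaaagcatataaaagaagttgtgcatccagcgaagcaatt

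An element was found before 5 of the 8 genes, and before 45.6% of the 5105 protein-coding genes of the assembly. The window of fio1 held 2, at 228 and 205 bases before its start. The genes fio1 and fip1 lie head to head with 303 bases between them, so the same 2 elements stand before fip1, at 71 and 94 bases from its start. The window of frp1 held 2 at 88 and 75 bases and that of fep1 held 2, while 13.8% of all windows held 2 or more. php4 had 1, and str1, str3 and sib1 had none in these windows. The stretch from the annotated start to the coding sequence, 866 bases in str1, 30 in str3 and 157 in sib1, was not searched. The CCAAT box, searched as CCAAT on either strand, was found before 4 of the 8 genes (fio1, fip1, fep1 and php4) against 41.0% of all windows. A match in this window is a description of letters and says nothing of binding.

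The libraries held 26461284 to 32916683 counts in genes. Counts of the deleted gene, cpn1, were 7543, 8990 and 9034 in wild-type but 169, 182 and 194 after its deletion, for a log2 fold change (log2FC, cpn1∆ minus wild-type) of -5.60 ± 0.04 (SE). Below, levels are given as CPM, the counts of a gene relative to the library total, scaled by the trimmed mean of M-values (TMM). They are relative to the other RNA of a library, so fewer cells expressing a gene and less RNA per cell cannot be told apart. A call is an adjusted p under 0.05 in the quasi-likelihood test of edgeR, adjusted after Benjamini-Hochberg over the 5812 features that passed a filter on low counts. All 8 genes passed that filter, all 8 had whole counts in every library, and 0 annotated counted features overlap any of them.

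None of the 8 genes was called in cpn1∆ by edgeR's quasi-likelihood test, while 18.6% of all features tested were (8.36% higher and 10.2% lower). DESeq2 and limma voom also called 0 of 8, and edgeR's exact test called 1, str1, as lower. With the replicate number as a block in the quasi-likelihood test, 2 were called higher (frp1 and sib1) and 1 lower (str1). That fit called 1227 of 5812 features. At an unadjusted p under 0.05 there were 3 of 8 (frp1, str1 and sib1), against 31.4% of all features. The log2FC of the 8 ran from -0.25 in str1 to 0.22 in frp1, with a median of -0.07 beside 0.006 over all features. In 0 of the 8 were the 3 libraries of one genotype all above or all below those of the other, against 35.5% of features (17.4% higher and 18.1% lower).

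**Figure D1:**
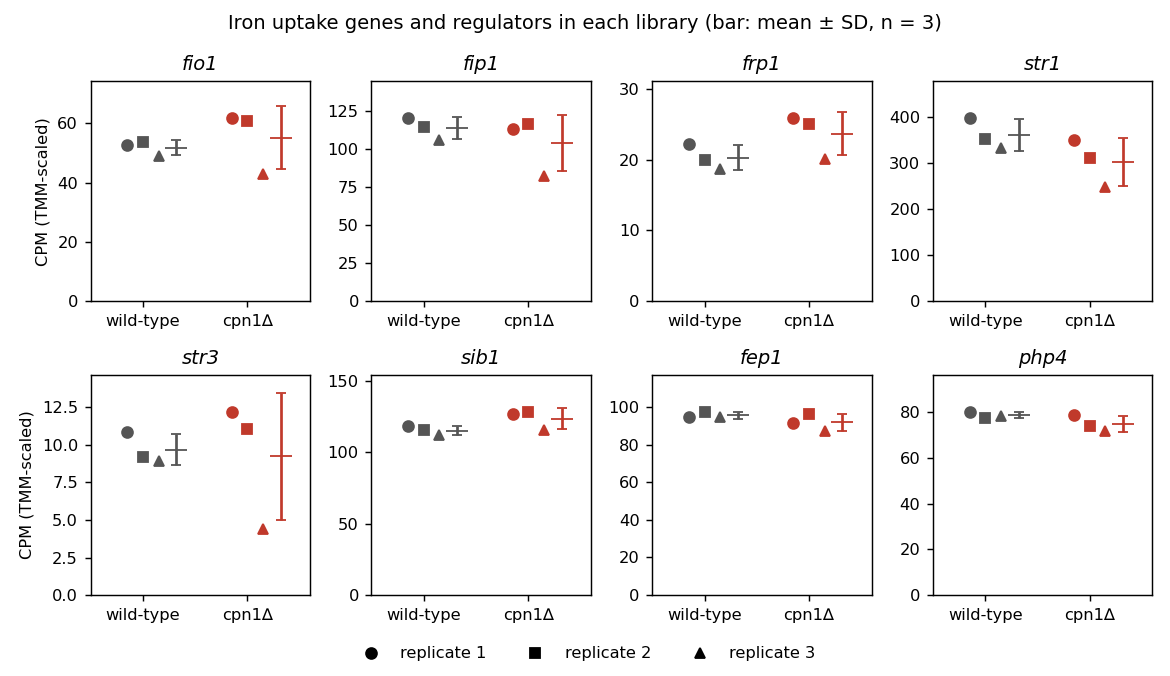
CPM (TMM-scaled, linear axes from 0) of each of the 8 genes in the 3 wild-type (grey) and 3 cpn1∆ (red) libraries, with the replicate number shown by the shape of the point and the bars giving the mean and SD (n = 3). The genotypes overlap for every gene, and the triangle of cpn1∆ replicate 3 is the lowest of its genotype in all 8 panels, most widely for str3.

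Among the reductive genes, frp1, the reductase, had 22.2, 20 and 18.6 CPM in wild-type replicates 1 to 3 and 25.9, 24.96 and 20.2 CPM in cpn1∆ replicates 1 to 3. Both of the first cpn1∆ libraries were above every wild-type library, and cpn1∆ replicate 3 was within their range. The mean was 20.3 ± 1.82 CPM (SD, n = 3) in wild-type and 23.7 ± 3.09 CPM (SD, n = 3) in cpn1∆, a log2FC of 0.22 ± 0.09 (SE; adjusted p = 0.114 by edgeR's quasi-likelihood test).

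The ferroxidase gene fio1 stood at 52.8, 53.6 and 49.0 CPM in wild-type and at 61.9, 60.7 and 43.1 CPM in cpn1∆. Here 2 cpn1∆ libraries were above all wild-type libraries and the third was below all of them. The fitted log2FC was 0.09 ± 0.10 (SE; adjusted p = 0.583 by edgeR's quasi-likelihood test), and the coefficient of variation over replicates was 19.1% in cpn1∆ and 4.76% in wild-type.

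Its neighbour fip1, the permease of the same complex, had 121, 115 and 106 CPM in wild-type and 113, 116 and 82.5 CPM in cpn1∆. The first 2 cpn1∆ libraries lay within the wild-type range and the third below it, for a log2FC of -0.13 ± 0.09 (SE; adjusted p = 0.367 by edgeR's quasi-likelihood test). Per kilobase of exon, the ratio of fip1 to fio1 was 3.62, 3.38 and 3.43 in wild-type and 2.89, 3.03 and 3.03 in cpn1∆. The ratio of this divergent pair therefore did not overlap between the genotypes, at 3.48 ± 0.124 against 2.99 ± 0.0789 (SD, n = 3 each), although neither gene was called. A two-sided exact permutation test gave p = 0.1, the smallest that 3 against 3 allows, so the design cannot reach 0.05. This pair was one of 3 ratios computed and was singled out after the values were seen. The others, str1 to str3 and php4 to fep1, overlapped between the genotypes.

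Among the siderophore genes, str1, the ferrichrome importer, had 398, 352 and 331 CPM in wild-type and 349, 311 and 247 CPM in cpn1∆. The highest cpn1∆ library lay within the wild-type range and the other 2 below it. The means were 361 ± 34.1 CPM and 303 ± 51.7 CPM (SD, n = 3 each), and the log2FC of -0.25 ± 0.09 (SE) was the largest of the 8 in size but missed the threshold (adjusted p = 0.0717 by edgeR's quasi-likelihood test). It passed without wild-type replicate 3 (log2FC -0.31, adjusted p = 0.0237) and without cpn1∆ replicate 1 (log2FC -0.37, adjusted p = 0.0155), as well as by edgeR's exact test (adjusted p = 0.0398). It also passed with the replicate number as a block (log2FC -0.26, adjusted p = 0.000237 by edgeR's quasi-likelihood test).

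sib1, the ferrichrome synthetase gene, varied least among the uptake genes, with 118, 115 and 112 CPM in wild-type and 127, 128 and 115 CPM in cpn1∆. Again 2 cpn1∆ libraries were above every wild-type library and the third was within their range. Its log2FC was 0.10 ± 0.04 (SE; adjusted p = 0.0960 by edgeR's quasi-likelihood test).

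str3 was the most variable of the 8. Its counts were 288, 289 and 285 in wild-type (10.9, 9.22 and 8.94 CPM) and 351, 347 and 143 in cpn1∆ (12.2, 11.1 and 4.38 CPM). The third cpn1∆ library was thus at 0.376 of the mean of the other 2, and at 0.490 of the lowest wild-type library. Its 143 counts have an exact Poisson 95% interval of 120.5 to 168.5, against 315.2 to 389.7 and 311.4 to 385.5 for the other 2, an error that covers counting alone. With this library the coefficient of variation was 45.9% in cpn1∆ and 10.8% in wild-type, and the log2FC was -0.08 ± 0.25 (SE; adjusted p = 0.862 by edgeR's quasi-likelihood test).

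The regulators were the steadiest of the 8. fep1, the repressor of the uptake genes, had 94.5, 97.5 and 94.4 CPM in wild-type and 91.5, 96.3 and 87.3 CPM in cpn1∆. php4 had 80.4, 77.6 and 78.4 CPM in wild-type and 78.7, 74.1 and 71.8 CPM in cpn1∆. For both, 1 cpn1∆ library fell within the wild-type range and the other 2 below it. The log2FC was -0.06 ± 0.04 (SE; adjusted p = 0.317) for fep1 and -0.07 ± 0.04 (SE; adjusted p = 0.211) for php4 by edgeR's quasi-likelihood test. Their coefficients of variation were 1.83% and 1.83% in wild-type and 4.88% and 4.70% in cpn1∆. The ratio of php4 to fep1 per kilobase was 1.90 ± 0.0640 in wild-type and 1.88 ± 0.105 in cpn1∆ (SD, n = 3 each; exact permutation p = 0.9).

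The pattern shared by the uptake genes was the position of cpn1∆ replicate 3. In this library all 6 uptake genes were below both other cpn1∆ libraries, and 4 of them (fio1, fip1, str1 and str3) were below every wild-type library as well. Against the mean log2 CPM of the other 2 cpn1∆ libraries it was lower by 1.40 for str3, 0.51 for fio1, 0.48 for fip1, 0.42 for str1, 0.33 for frp1 and 0.14 for sib1, in log2 units. The regulators differed by less, at -0.10 for fep1 and -0.09 for php4. Among the 5048 tested features with a mean of at least 3 CPM, str3 had the lowest of these differences, fio1 the 10th lowest, fip1 the 16th, str1 the 24th and frp1 the 49th. Over all 5812 features tested, which include those with few counts, the ranks from the lowest were 5 for str3, 111 for fio1, 126 for fip1, 151 for str1 and 215 for frp1.

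**Figure D2:**
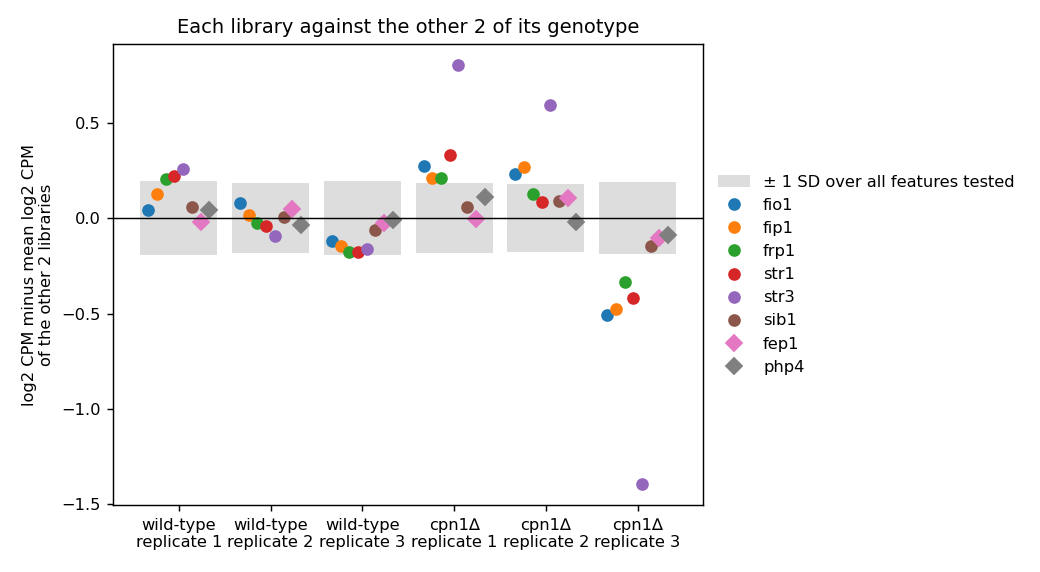
Difference in log2 CPM between each library and the mean of the other 2 libraries of its genotype (y axis), for the 6 uptake genes (circles) and the 2 regulators (diamonds), with the grey boxes giving 1 SD either side of 0 over all 5812 features tested. In cpn1∆ replicate 3, 5 of the 6 uptake genes lie below the grey box, with str3 at -1.40, while sib1, fep1 and php4 lie within it.

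The library did not stand apart over all features: the SD of these differences was 0.188 in it and 0.179 to 0.193 in the other 5, and their median in it was 0.002. Nor did the other iron uptake genes follow, since str2, sib2, sib3, frp2 and abc3 differed by -0.08 to 0.02 there, with a median of -0.05. The other iron regulators on a list of 7 had a median of 0.01. Of the 18 tested genes that use or store iron, 1 had a difference below 0 in this library, beside 2859 of all 5812 features. Their median was 0.04, within a range of -0.14 to 0.28. In wild-type, replicate 3 was likewise the lowest of its genotype for all 6 uptake genes, by 0.06 to 0.18 in log2 units, a smaller spread that lies within 1 SD of all features. Among the 5048 features with a mean of at least 3 CPM, its ranks from the lowest were 248 for frp1, 254 for str1 and 309 for str3. Those of fip1, fio1 and sib1 were 370, 541 and 1183. In replicate 1 of both genotypes, by contrast, all 6 uptake genes were above the mean of the other 2 libraries, by 0.04 to 0.26 in wild-type and by 0.06 to 0.80 in cpn1∆.

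In the fit without a replicate block, the calls of 3 uptake genes turn on this library. Without cpn1∆ replicate 3, fio1 (log2FC 0.24 ± 0.05, SE; adjusted p = 0.00414), frp1 (log2FC 0.33 ± 0.08, SE; adjusted p = 0.0124) and sib1 (log2FC 0.15 ± 0.03, SE; adjusted p = 0.0109) were called higher by edgeR's quasi-likelihood test. These are 1.18-fold, 1.26-fold and 1.11-fold over wild-type, in a fit that called 15.1% of all features (6.19% higher and 8.96% lower). The sign of str3 turned to 0.27 ± 0.11 (SE; adjusted p = 0.129) and that of fip1 to 0.01 (adjusted p = 0.901), and str1 stayed negative at -0.13 (adjusted p = 0.193). fep1 and php4 had log2FC of -0.03 and -0.05, neither called. Wild-type replicate 3, the lowest of its genotype for all 6 uptake genes, stayed in this fit. With all 6 libraries and the replicate block, fio1 had a log2FC of 0.08 (adjusted p = 0.408 by edgeR's quasi-likelihood test). No label or file value marks cpn1∆ replicate 3 as faulty, and the values with all 6 libraries therefore stand as the result.

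**Figure D3:**
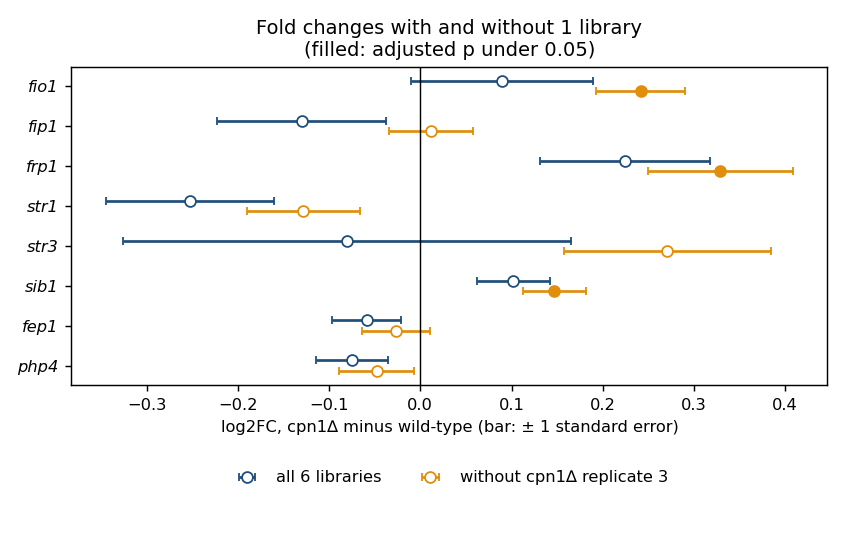
log2FC (cpn1∆ minus wild-type, x axis) of the 8 genes with all 6 libraries (blue) and without cpn1∆ replicate 3 (orange), with bars of 1 standard error and filled points for an adjusted p under 0.05. With all libraries no point is filled, and without the 1 library fio1, frp1 and sib1 are filled on the higher side while str3 and fip1 cross 0.

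Levels between genes were compared per kilobase of exon. In wild-type the order was str1 at 120 ± 11.4, fip1 at 64.2 ± 4.08, php4 at 51.9 ± 0.948 and fep1 at 27.3 ± 0.50 CPM per kilobase (SD, n = 3). Then came fio1 at 18.5 ± 0.880, frp1 at 9.96 ± 0.892, sib1 at 7.66 ± 0.207 and str3 at 4.63 ± 0.499 CPM per kilobase. No neighbours in this order overlapped over the wild-type libraries. The median of all features tested was 31.1 CPM per kilobase, so that str1, fip1 and php4 were above it and the other 5 below. In cpn1∆ the means kept this order, from 101 ± 17.3 CPM per kilobase for str1 to 4.41 ± 2.03 for str3, but there str3 spanned 2.10 to 5.84. The ranges of fip1 (46.6 to 65.7) and php4 (47.3 to 51.8) overlapped in cpn1∆.

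Over the 6 libraries, log2 CPM of frp1 was most like that of sib1 among the 8 (Pearson's r = 0.98, Spearman's rho = 0.94), that of fip1 like str3 (r = 0.95, rho = 0.60) and that of str1 like php4 (r = 0.94, rho = 0.83). The head-to-head pair fio1 and fip1 had r = 0.79 and rho = 0.49. These values are descriptions over 6 libraries of 2 genotypes, and those with str3 include its low value in cpn1∆ replicate 3. Of all other features tested, those most like fio1 were SPNCRNA.1515 (r = 0.98), ppk31 (r = 0.97) and chl1 (r = 0.97), of which SPNCRNA.1515 was at 0.184 to 0.626 CPM and ppk31 at 0.980 to 1.57 CPM. Those most like php4 were npc2 (r = 0.98), nup189 (r = 0.98) and rsm27 (r = 0.97). None of these 6 was called in cpn1∆, with adjusted p from 0.223 to 0.814 by edgeR's quasi-likelihood test.

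Some of the nearest annotated features beside the 8 genes were called, as were 18.6% of all features tested. On the far side of fio1 lies snoR54b, a small nucleolar RNA gene 431 bases away on the same strand. It rose in cpn1∆ (log2FC 0.68 ± 0.18, SE; adjusted p = 0.0165 by edgeR's quasi-likelihood test). In these polyA-selected libraries it had 7.06, 5.81 and 5.30 CPM in wild-type and 10.2, 11.8 and 6.89 CPM in cpn1∆. It was thus also low in cpn1∆ replicate 3, by 0.67 in log2 units, and there within the wild-type range. pcl1, the vacuolar iron importer gene, lies 1141 bases from frp1 and fell. rpb2, a subunit gene of RNA polymerase II, lies 67 bases from sib1 and fell (log2FC -0.26), and mrpl39, a mitochondrial ribosomal protein gene 2905 bases from str1, rose (log2FC 0.20, adjusted p = 0.00907). The other tested neighbours that are not members, which were vps901, ght4, sib2 and the non-coding RNAs SPNCRNA.243, SPNCRNA.604 and SPNCRNA.648, were not called. In cpn1∆ replicate 3 these RNAs were low too, by 0.43 beside fip1, 0.86 beside str3 and 0.81 beside fep1. There they had 13, 13 and 86 counts. The genes vps901, ght4 and sib2 were above the mean of the other 2 cpn1∆ libraries, by 0.09, 0.13 and 0.01.

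Other genes of iron handling were described from lists. Of 6 further uptake genes, 5 were tested, with a median log2FC of -0.04. abc3, a transporter gene of the vacuolar membrane, fell from 55.4 ± 3.85 to 45.4 ± 1.15 CPM (SD, n = 3; log2FC -0.29, adjusted p = 0.00160), although 56.1% of it is covered by a feature on the opposite strand, whose reads cannot be told apart where strand was not used. sib3, another gene of ferrichrome synthesis, rose from 170 ± 6.55 to 183 ± 1.53 CPM (log2FC 0.10, adjusted p = 0.0311), a call that was lost without any 1 library other than wild-type replicate 3. frp2, the relative of frp1, had a log2FC of -0.18 (adjusted p = 0.243). shu1, the heme receptor gene 1922 bases from str3, had 1 to 8 counts a library and was not tested.

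Of 7 further regulators, 0 were called by edgeR's quasi-likelihood test, DESeq2, limma voom or edgeR's exact test, and 3 had an unadjusted p under 0.05, beside 18.6% of all features called and 31.4% at that unadjusted p. The 7 were php2, php3 and php5, the other CCAAT-binding subunits, tup11 and tup12, co-repressors of Fep1, and grx4 and fra2, which pass on the iron signal. Their log2FC ran from -0.11 in php2, of which 61.4% is covered on the opposite strand, to 0.05 in php5.

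Of 20 genes that use or store iron, 18 were tested, 8 were called lower and 1 higher, beside 10.2% and 8.36% of all features, and their median log2FC was -0.05. The largest were leu2, isopropylmalate dehydratase, which fell from 1247 ± 32.1 to 1009 ± 14.8 CPM (SD, n = 3; log2FC -0.30, adjusted p = 1.33e-05), and glt1, glutamate synthase, which fell from 604 ± 11.6 to 491 ± 4.19 CPM (log2FC -0.30, adjusted p = 4.42e-06). pcl1 fell from 314 ± 2.68 to 270 ± 7.21 CPM (log2FC -0.22, adjusted p = 0.000101), with every cpn1∆ library below every wild-type library. In cpn1∆ replicate 3, pcl1 was above the mean of the other 2 by 0.05 in log2 units. bio2, biotin synthase (log2FC -0.16), ilv3, dihydroxy-acid dehydratase (-0.12), the gene annotated as tim18 with the synonym sdh4 (-0.12) and rli1, a ribosome recycling factor (-0.10), also fell, and cyt1, cytochrome c1, rose (0.12). The fit without cpn1∆ replicate 1 or without cpn1∆ replicate 2 called 5 of these lower in place of 8. The calls of tim18, rli1 and ilv3 were lost in both fits, and under 6, 4 and 2 of the 18 alternatives in all. With total counts only, tim18 and rli1 were lost, and with upper-quartile scaling tim18 was. rip1 and lys2 had 0 counts in every library and were not tested. Along their whole length both face annotated features on the other strand.

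Of 14 genes of iron-sulphur cluster assembly, 1 was called higher and 1 lower, beside 8.36% and 10.2% of all features. ssc1, the mitochondrial Hsp70, rose from 1793 ± 32.6 to 2034 ± 14.7 CPM (SD, n = 3; log2FC 0.18, adjusted p = 0.00153) and isu1, the scaffold protein gene, fell from 193 ± 10.1 to 173 ± 1.95 CPM (log2FC -0.15, adjusted p = 0.00907). The largest differences on this list, 0.29 in nfu1 and 0.21 in isa2, were not called (adjusted p = 0.104 and 0.0516). nfu1 had 164 to 235 counts a library, and 88.7% of it is covered on the opposite strand. Of 11 copper and zinc genes, 3 were called higher, beside 8.36% of all features: zym1, a metallothionein (16.5 ± 4.82 to 24.6 ± 2.74 CPM; log2FC 0.57, adjusted p = 0.0140), loz1, a zinc-responsive repressor (log2FC 0.17, adjusted p = 0.0142), and ctr6, a vacuolar copper transporter (log2FC 0.12, adjusted p = 0.0346). DESeq2 called 1 higher, with zym1 and ctr6 lost, and without wild-type replicate 2 the quasi-likelihood test called 0 higher. None was called lower by edgeR's quasi-likelihood test, DESeq2 and edgeR's exact test each called 1 lower, and 7 of the 11 had an unadjusted p under 0.05 in either direction, against 31.4% of all features. All adjusted p-values of these lists are from edgeR's quasi-likelihood test over all features.

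**Figure D4:**
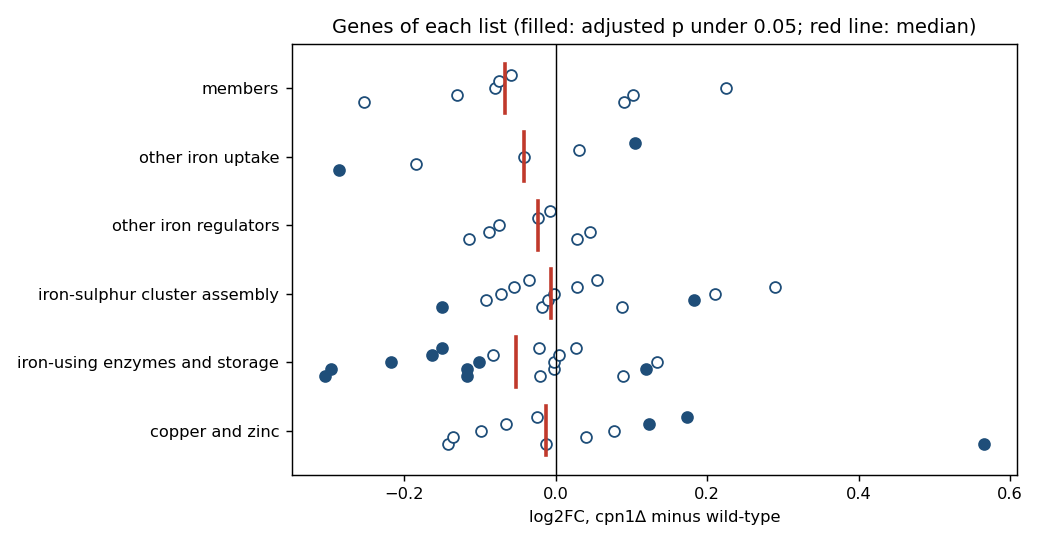
log2FC (cpn1∆ minus wild-type, x axis) of each tested gene of the 8 and of the other lists (rows), filled where the adjusted p was under 0.05, with a red line at the median of the row. The row of the 8 has no filled point, the row of iron-using enzymes and storage has 9, and the widest single value is zym1 at 0.57.

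With the fold threshold of the study, a log2FC beyond 1 in either direction with an adjusted p under 0.05, 0.619% of all features were called and none of the genes in these lists. Of the 16 calls in the lists, 9 (among them abc3, isu1, ssc1, pcl1, cyt1, leu2, glt1 and bio2) were kept under all 18 alternatives of scaling, filter, test, block and libraries, and 7 were lost under at least 1.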

How the data were processed

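The authors deposited expected counts per feature for 3 wild-type and 3 cpn1∆ polyA-selected libraries, not normalized. Per the study's methods and processing notes, reads were trimmed with Cutadapt 4.8, aligned with STAR 2.7.10b to ASM294v2 and counted with featureCounts, and the authors tested them with edgeR 3.42.4. The strand setting and the treatment of reads with several matches are not given in the sources consulted. Fractional counts (760 of 7268 features) were rounded, and the row named other (0.608% to 0.647% of a library) was left out.

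Counts were scaled with TMM and filtered with filterByExpr (minimum count 10), and cpn1∆ was set against wild-type in the quasi-likelihood test of edgeR 4.0.16 in R 4.3.3 without covariates, with Benjamini-Hochberg adjustment over 5812 features. The steps were tested on simulated data. The SE is the absolute log2FC over the square root of F. Alternatives used DESeq2 1.42.0, limma 3.58.1 voom, edgeR's exact test, other scalings and filters, protein-coding genes only, a replicate block and each library left out. Replicates of one genotype differed by more than sampling noise (chi-square per gene 4.68 to 11.0), so none was counted as 1 sample. Levels per kilobase use the summed exon length of ASM294v3, to which 6846 features were matched by identifier. A counting interval covers counting error only.

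The members and lists were chosen with earlier results of these data known. The text names the 8 members, cpn1, the called genes of each list and its 2 largest changes, the nearest neighbours and the 3 features most alike to fio1 and php4 by Pearson's r of log2 CPM (prior count 2). In the cluster assembly list 2 of 16 listed genes had no safe match. The values of 1 listed gene are not reported here.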

Additional observations from a re-analysis of the deposited data

How the results depend on the processing

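Of the 8 genes, str3 and fip1 turned sign without cpn1∆ replicate 3 (0.27 and 0.012), and str3 without wild-type replicate 1 (0.0021). Over the fits without 1 library, log2FC ran from 0.0019 to 0.24 for fio1, -0.22 to 0.012 for fip1, 0.16 to 0.33 for frp1, -0.37 to -0.13 for str1, -0.33 to 0.27 for str3, 0.072 to 0.15 for sib1, -0.10 to -0.03 for fep1 and -0.11 to -0.05 for php4, and 0 to 3 of the 8 were called higher and 0 to 1 lower. By edgeR's exact test 1 was called lower (str1, log2FC -0.25). Replicate numbers are shared by the genotypes, and the study states that the replicates of both were processed in parallel. Over all features tested, same-numbered libraries correlated at -0.0554, 0.0459 and 0.0864 in their deviations from the genotype means. Not every library correlated best with its own number. All 6 uptake genes, however, were above the mean of the other 2 libraries in replicate 1 and below it in replicate 3 of both genotypes. Whether same-numbered libraries shared a batch was not tested. With the replicate block, 2 of the 8 were called higher (frp1, 0.22, adjusted p = 0.0262; sib1, 0.10, adjusted p = 0.0378) and 1 lower (str1, -0.26, adjusted p = 0.000237, edgeR's quasi-likelihood test), with 1227 calls in all in place of 1081. The other scalings, filters and tests moved no other call among the 8. The shift in log2FC from the main fit had a median over all features of at most 0.0255 in size.

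Counts in the lists moved as follows. Without 1 library, other uptake genes gave 0 to 1 higher, other regulators 0 to 2 lower, cluster assembly 1 to 2 higher and 1 to 2 lower, iron-using genes 1 to 2 higher and 5 to 8 lower, and copper and zinc genes 0 to 3 higher and 0 to 1 lower. Cluster assembly gave 2 higher with upper-quartile scaling, total counts only, the exact test or protein-coding genes only, and 2 lower with RLE scaling, at least 1 CPM in 3 libraries, at least 10 counts in every library, the legacy quasi-likelihood fit, the replicate block or protein-coding genes only. Copper and zinc gave 1 higher with DESeq2, 1 lower with DESeq2, the exact test or protein-coding genes only, and 2 lower with the block. With the fold threshold all list counts were 0. The cause of these moves was not tested. Of the 8, str3 has the fewest counts, 143 to 351, and the widest error.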
